A study of Mus musculus with 9 samples.

Results

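The Wnt ligands, the frizzled receptors and the secreted frizzled-related proteins were examined in the cardiac outflow tract of mouse embryos at embryonic day 12.5. All gene symbols built as Wnt, Fzd or Sfrp followed by a number were taken, which gave 33 genes of the 48397 symbols counted. They comprise 19 Wnt genes, 10 Fzd genes and 4 Sfrp genes. HO embryos (Nkx2-5delta-enh/delta-enh, 5 libraries) lack both copies of an enhancer of Nkx2-5 that is active in the anterior second heart field, the progenitor pool that builds the outflow tract. WT embryos (Nkx2-5+/+, 4 libraries) were their littermates, and both groups have the C57BL/6J background. The labels name no Cre driver or further agent. Total RNA of dissected tissue was sequenced, so a gene's level sums all cells of the dissected tract. The labels do not say whether each library holds 1 embryo, and p-values therefore measure only the spread between these samples.

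Wnt proteins are lipid-modified secreted ligands that bind the cysteine-rich domain of frizzled receptors. In the canonical branch they stabilise β-catenin, which acts with TCF and LEF factors on target genes, and in the non-canonical branch they steer cell polarity and movement. Secreted frizzled-related proteins carry a frizzled-like domain without a membrane anchor and bind Wnt proteins outside the cell. In mice, loss of Wnt5a or Wnt11, both mainly non-canonical ligands, disturbs formation of the outflow tract.

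The libraries held 27707435 to 49094225 reads assigned to genes and 20606 to 22093 genes with at least 1 read. Nkx2-5 itself, the gene whose enhancer was deleted, had 16.5, 24.4, 17.8, 11.4 and 17.4 counts per 1000000 assigned reads (CPM) in HO, against 18.8, 42.0, 45.0 and 39.5 CPM in WT. Its log2 fold change was -1.05 (SE 0.26, edgeR adjusted p = 0.896, unadjusted p = 0.00225), and DESeq2 gave an adjusted p of 0.0544. With the replicate number as a block the adjusted p was 0.899 in edgeR and 0.0241 in DESeq2. The library labelled WT1 lay within the HO range, and the main results that rest on it are also given without it. Of 16 outflow myocardium markers, 15 passed the low-count filter and had at least 1 CPM in at least 4 libraries. Of these 15, 13 were below 0 in HO over WT, while 50.6% of all genes tested were above 0. At an unadjusted edgeR p under 0.05, 3 were lower, Nkx2-5 among them, against 2.94% of all genes tested, and Isl1 was higher. Isl1 also stands in the list of neuron and Schwann cell markers, whose sum was far highest in HO2. It was not under that level without WT1 or with the replicate number as a block. Without WT1, 8 of 16 tested were lower at that level, again with Nkx2-5, and no share over all genes was computed. WT1 had the lowest sum of these markers, so leaving it out by itself moves HO down against WT. The summed level of the myocardium markers was 11900 to 16100 CPM in HO, against 8430 CPM in WT1, the lowest of all libraries, and 17200 to 19500 CPM in the other WT libraries. The deposited names of the libraries also carry a number that the labels do not explain. HO1, HO2, WT1 and WT2 share the first number, and HO3, HO4, WT3 and WT4 share the second. HO5 has a number of its own and was counted here with the second. These are called the first and the second number set, and replicates are given in numerical order throughout.

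Promoter sequence is shown for 4 of the 6 members that differed between the number sets, described further down. Windows of Wnt5a and Fzd2, the other members of that group, are not shown. Each line holds the 250 bases upstream of a RefSeq transcription start (GRCm38.p6), 5′ to 3′ on the gene's strand. Wnt11 has 2 such windows, and the one shown was picked because it holds a motif match, while the other holds none. Capitals mark a match to CTTTGA or its reverse complement, the core letters bound by TCF and LEF factors, or to TNAAGTG on either strand, the core letters of the element that NKX2-5 binds. These motifs do not overlap each other in the windows shown.
Wnt11 (chr7:98834862-98835111, plus strand): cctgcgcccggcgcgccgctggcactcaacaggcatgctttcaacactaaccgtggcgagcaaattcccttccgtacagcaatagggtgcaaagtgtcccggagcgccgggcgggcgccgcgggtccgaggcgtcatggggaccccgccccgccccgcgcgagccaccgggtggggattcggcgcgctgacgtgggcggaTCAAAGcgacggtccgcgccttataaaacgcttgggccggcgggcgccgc
Fzd1 (chr5:4758217-4758466, minus strand): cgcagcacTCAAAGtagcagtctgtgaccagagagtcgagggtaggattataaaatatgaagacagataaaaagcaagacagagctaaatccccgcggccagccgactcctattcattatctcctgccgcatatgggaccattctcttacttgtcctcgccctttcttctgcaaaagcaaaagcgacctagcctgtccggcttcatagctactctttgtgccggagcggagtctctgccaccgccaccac
Sfrp2 (chr3:83766071-83766320, plus strand): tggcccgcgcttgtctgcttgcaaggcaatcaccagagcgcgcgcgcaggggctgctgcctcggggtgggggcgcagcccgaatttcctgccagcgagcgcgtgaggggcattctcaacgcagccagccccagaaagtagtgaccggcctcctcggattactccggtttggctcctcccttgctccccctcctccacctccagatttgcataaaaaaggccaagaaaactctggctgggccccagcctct
Sfrp5 (chr19:42202253-42202502, minus strand): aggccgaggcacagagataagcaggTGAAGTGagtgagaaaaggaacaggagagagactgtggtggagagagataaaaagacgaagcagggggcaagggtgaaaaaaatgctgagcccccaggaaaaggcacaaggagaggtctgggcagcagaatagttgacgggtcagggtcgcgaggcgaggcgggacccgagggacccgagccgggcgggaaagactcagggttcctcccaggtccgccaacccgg
The TCF and LEF letters start 50 bases upstream in Wnt11 and 242 bases upstream in Fzd1, and the NKX2-5 letters start 225 bases upstream in Sfrp5. The Sfrp2 window holds neither motif. Of the 26 RefSeq windows used here for 23 members, 3 (11.5%) hold CTTTGA and 2 (7.69%) hold TNAAGTG, against 13.8% and 10.1% of all 32851 windows of the same length. The members with CTTTGA are Fzd1, Wnt11 and Wnt5b, and those with TNAAGTG are Sfrp5 and Wnt8b. Member windows had a median GC content of 71.2%, against 52.4% over all windows. A letter match is a description of the window and not a binding site.

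The outflow tract expressed most of the receptors and antagonists but a minority of the ligands. At a threshold of 1 CPM in at least 4 libraries, 21 of the 33 genes were expressed. These were 8 of 19 Wnt genes, 9 of 10 Fzd genes and all 4 Sfrp genes. With thresholds of 0.5 and 2 CPM, 25 and 20 genes were expressed. The low-count filter kept 25 of the 33 genes for testing, namely 11 Wnt, 10 Fzd and 4 Sfrp genes. Wnt7a, Wnt7b, Wnt16 and Fzd5 passed that filter without reaching the 1 CPM threshold in 4 libraries.

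The other 8 Wnt genes were not tested. Wnt3a, Wnt8b and Wnt10a had 0 reads in all 9 libraries, where 3 reads in a library would equal 0.0604 to 0.107 CPM, the level that a count of 0 still allows by counting error. Wnt8a had 2 reads in all, in HO1. Wnt1 had 14 reads in all, from 2 WT libraries. Wnt3 had 39, Wnt6 had 87 and Wnt10b had 69 reads in all, and none of these 3 genes reached 1 CPM in any library. Wnt1, Wnt3a and Wnt8a are ligands best known for canonical signalling in early patterning and in the neural tube.

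Among the ligands, Wnt11, Wnt5a and Wnt5b had the highest levels once exon length was taken into account. Mean levels over the 9 libraries were 21.5 CPM per kb of exon for Wnt11, 18.5 for Wnt5a and 14.0 for Wnt5b. Wnt11 (chr7:98835112-98855195) had 71.2, 53.8, 100, 116 and 86.8 CPM in HO, against 75.2, 62.7, 118 and 116 CPM in WT. Wnt5a (chr14:28504750-28527448) had 124, 116, 160, 196 and 156 CPM in HO, against 107, 89.2, 169 and 186 CPM in WT. In both genes the low libraries were the first number set of both genotypes, and HO and WT overlapped. Their order is not firm, since length as the mean over transcripts puts Wnt5a above Wnt11, and the per-kb ranges of the genes overlap. Of the length-corrected Wnt sum, Wnt11 made up 30.2% ± 2.64 in HO and 30.0% ± 4.32 in WT, Wnt5a 28.5% ± 1.98 in HO and 23.4% ± 4.1 in WT, and Wnt5b 18.1% ± 3.64 in HO and 23.8% ± 10.4 in WT (SD, n = 5 HO and 4 WT).

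A second tier of ligands followed at 4.48 CPM per kb for Wnt4, 4.37 for Wnt9b and 3.64 for Wnt9a, with Wnt2 at 2.08 and Wnt2b at 1.14. Wnt4, known from kidney and gonad development, had 11.2 to 26.5 CPM in HO, against 3.18 to 30.4 CPM in WT. Wnt9b, which valve endocardium makes in the mouse, had 10.7 to 39.1 CPM in HO, against 0.472 to 30.4 CPM in WT. WT2 was the lowest library for both genes. Wnt2 and Wnt2b, which act together in lung specification in the mouse, had 1.88 to 4.99 and 2.39 to 5.11 CPM in HO, against 3.13 to 7.65 and 3.05 to 10.2 CPM in WT.

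Of the receptors, Fzd1 was highest, followed by Fzd2 and Fzd4. Fzd1 (chr5:4753839-4758035) had 336, 233, 486, 506 and 489 CPM in HO, against 367, 300, 486 and 447 CPM in WT. Fzd2 (chr11:102604396-102608058), which acts redundantly with Fzd7 in closure of the ventricular septum in mice, had 98.8, 83.1, 126, 133 and 128 CPM in HO, against 105, 110, 142 and 160 CPM in WT. Both were again lowest in the first number set, with overlapping genotypes. Fzd4 (chr7:89404355-89413134), also the receptor of the non-Wnt ligand Norrin, had 104, 89.5, 111, 114 and 108 CPM in HO, against 115, 102, 94.6 and 78.6 CPM in WT. Per kb of exon these means were 96.6, 33.0 and 15.2 CPM, and Fzd1 alone made up 53.8% ± 5.35 of the length-corrected Fzd sum in HO and 53.5% ± 4.12 in WT (SD, n = 5 HO and 4 WT). Fzd7 at 13.0, Fzd8 at 6.63, Fzd6 at 5.70, Fzd9 at 5.15 and Fzd3 at 1.55 CPM per kb followed. Fzd3 and Fzd6, receptors of planar cell polarity, had 18.4 to 26.6 and 23.7 to 32.1 CPM in HO, against 12.1 to 20.9 and 25.9 to 30.1 CPM in WT. Fzd10 averaged 0.79 and Fzd5 0.161 CPM per kb.

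Sfrp2 was the member with the highest level of all 33. Sfrp2 (chr3:83766321-83774316) had 885, 929, 444, 667 and 570 CPM in HO, against 1540, 1120, 607 and 535 CPM in WT. Sfrp1 (chr8:23411502-23449632) had 549, 355, 448, 492 and 465 CPM in HO, against 576, 568, 435 and 470 CPM in WT. Genotypes overlapped in both genes, and Sfrp2 was lower in every library of the second number set than in any of the first. Mean levels were 376 CPM per kb for Sfrp2, 111 for Sfrp1, 2.69 for Sfrp5 and 0.311 for Sfrp4. Sfrp2 made up 73.8% ± 5.8 of the length-corrected Sfrp sum in HO and 76.8% ± 6.4 in WT (SD, n = 5 HO and 4 WT). Sfrp5 (chr19:42197971-42202252), a marker of inflow progenitors in the mouse heart, had 4.91, 23.2, 1.39, 1.14 and 1.57 CPM in HO, against 5.31, 5.91, 1.10 and 1.5 CPM in WT. The HO2 library stood far above the others for this gene.

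**Figure D1:**
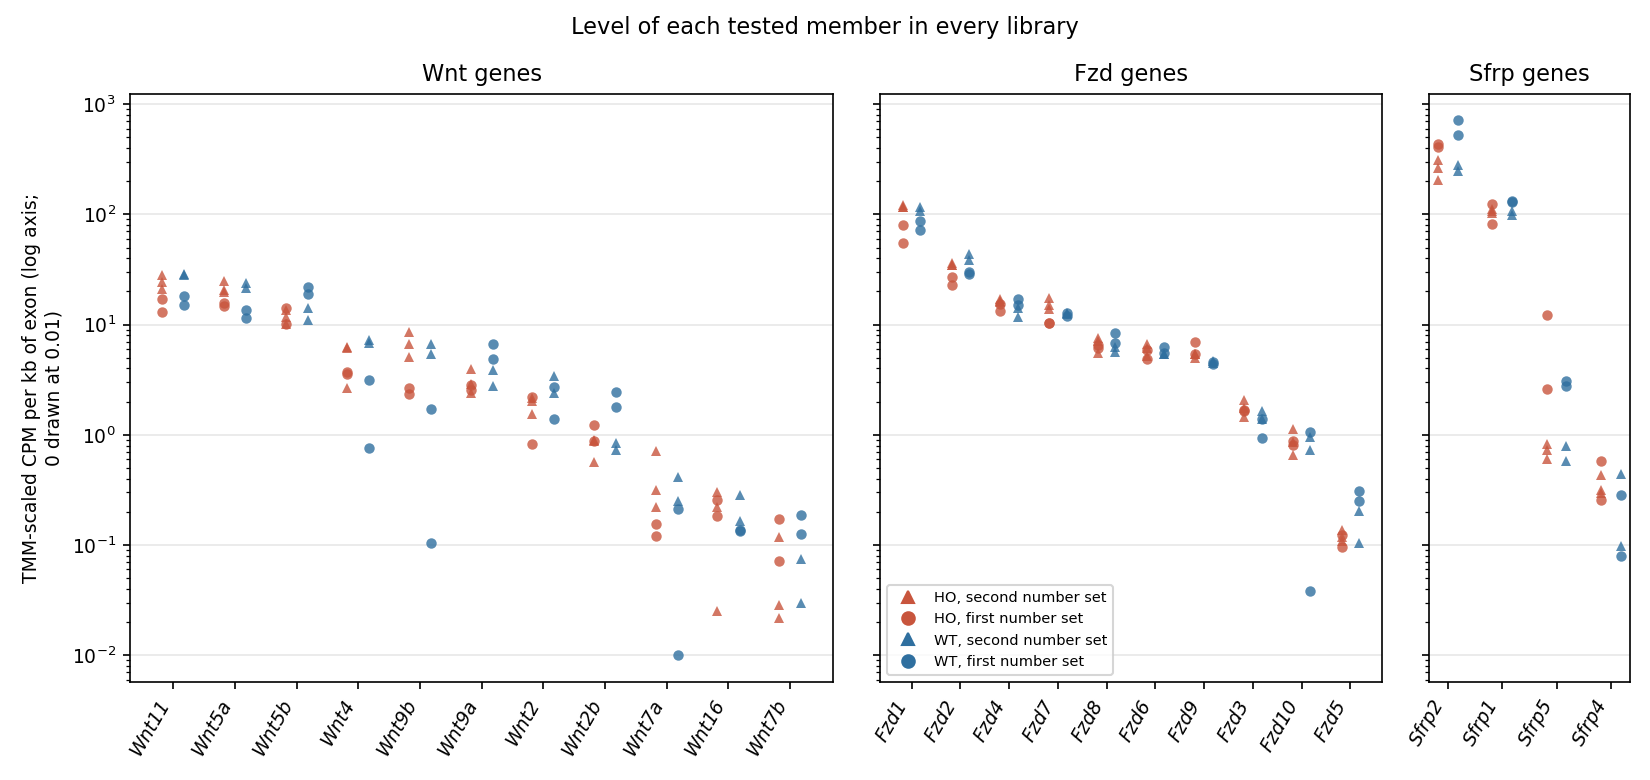
Level of each of the 25 tested members in every library, as TMM-scaled CPM per kb of exon on a log axis, with HO left of WT for each gene, triangles for the second and circles for the first number set, and a value of 0 drawn at 0.01. Wnt11, Wnt5a, Fzd1, Fzd2, Sfrp2 and Sfrp1 lead their families, and the circles and triangles separate for Sfrp2 and Sfrp5.

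Of the 33 members, 9 overlap an annotated gene on the opposite strand, among them Wnt5a, Wnt5b, Wnt11, Fzd3, Fzd5, Fzd6 and Sfrp2. This overlap was taken over whole genes, introns included, and overlap of exons was not examined. The strand setting of the read counting is not given in the sources used here. Where exons overlap, reads from these genes and from their partners therefore may not have been told apart. On the same strand, 2 members, Wnt2b and Fzd3, overlap an annotated gene.

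The enhancer deletion was tested by comparing HO with WT, and no member passed the test. Wnt5b, Wnt9a and Fzd5 had lower and Fzd9 had higher values in HO at an unadjusted p under 0.05, with folds of modest size. The most abundant ligands, receptors and antagonists overlapped between genotypes. In bulk tissue, fewer cells of a type and less RNA per cell cannot be told apart.

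With edgeR, 0 of 25 members had an adjusted p under 0.05 (lowest 0.896), and 0 of all 16522 tested genes (0%) did. DESeq2 called 0 members (lowest adjusted p 0.546) and 40 of 17757 genes (0.225%), or 69 genes and 0 members with the replicate number as a block. With limma, 0 members and 4 genes (0.0242%) were called. At an unadjusted edgeR p under 0.05, 4 of 25 members stood out, 1 higher and 3 lower in HO, against 870 of all genes tested (5.27%; 2.32% higher and 2.94% lower). With the replicate number as a block none of these 4 remained (unadjusted p 0.0723 for Wnt5b, 0.0923 for Wnt9a, 0.123 for Fzd5 and 0.0766 for Fzd9 in edgeR), while Fzd2 (0.0306, lower) and Sfrp4 (0.0484, higher) were under 0.05, which makes 2 of 25 members against 4.84% of all genes tested. HO and WT did not overlap for 1 member, Fzd9, and for 298 of all genes tested (1.8%). The median log2 fold change of the tested members was 0.03, with 13 above and 12 below 0, against a median of 0.00 and 50.6% above 0 over all genes tested. By family the median was -0.12 for Wnt, 0.07 for Fzd and 0.29 for Sfrp genes. Without HO2 these medians were 0.01, 0.17 and -0.31, so the signs for the Wnt genes and for the 4 Sfrp genes turned with 1 library.

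Wnt5b (chr6:119432531-119544347), a close relative of Wnt5a, had 37.2, 27.0, 31.3, 36.0 and 26.8 CPM in HO, against 58.6, 50.1, 29.3 and 37.8 CPM in WT. WT1 and WT2 were the high libraries, while WT3 and WT4 lay in or next to the HO range. The log2 fold change was -0.47 (SE 0.19, unadjusted p = 0.0342, edgeR adjusted p = 0.896). Wnt9a (chr11:59306928-59333552), a ligand with roles in joint and skeletal development, had 9.46, 8.41, 9.63, 13.2 and 8.02 CPM in HO, against 22.1, 16.2, 9.27 and 12.8 CPM in WT. Again only WT1 and WT2 lay above every HO library, and the log2 fold change was -0.63 (SE 0.25, unadjusted p = 0.0277, edgeR adjusted p = 0.896). Without WT1 the log2 fold changes were -0.30 for Wnt5b and -0.39 for Wnt9a.

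Fzd5 (chr1:64730558-64737751), a receptor of low level here, had 0.846, 0.663, 0.946, 0.748 and 0.823 CPM in HO, against 1.72, 2.14, 0.727 and 1.40 CPM in WT. WT3 was inside the HO range and the other WT libraries were above it. The log2 fold change was -0.89 (SE 0.36, unadjusted p = 0.0319, edgeR adjusted p = 0.896). Fzd9 (chr5:135248938-135251230) had 12.4, 16.1, 12.4, 11.4 and 12.4 CPM in HO, against 10, 10.6, 10.7 and 10.3 CPM in WT. Every HO library was above every WT library, by less than 1 CPM at the closest, and the log2 fold change was 0.31 (SE 0.14, unadjusted p = 0.0474, edgeR adjusted p = 0.896). Without HO2 the Fzd9 fold was 0.22.

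**Figure D2:**
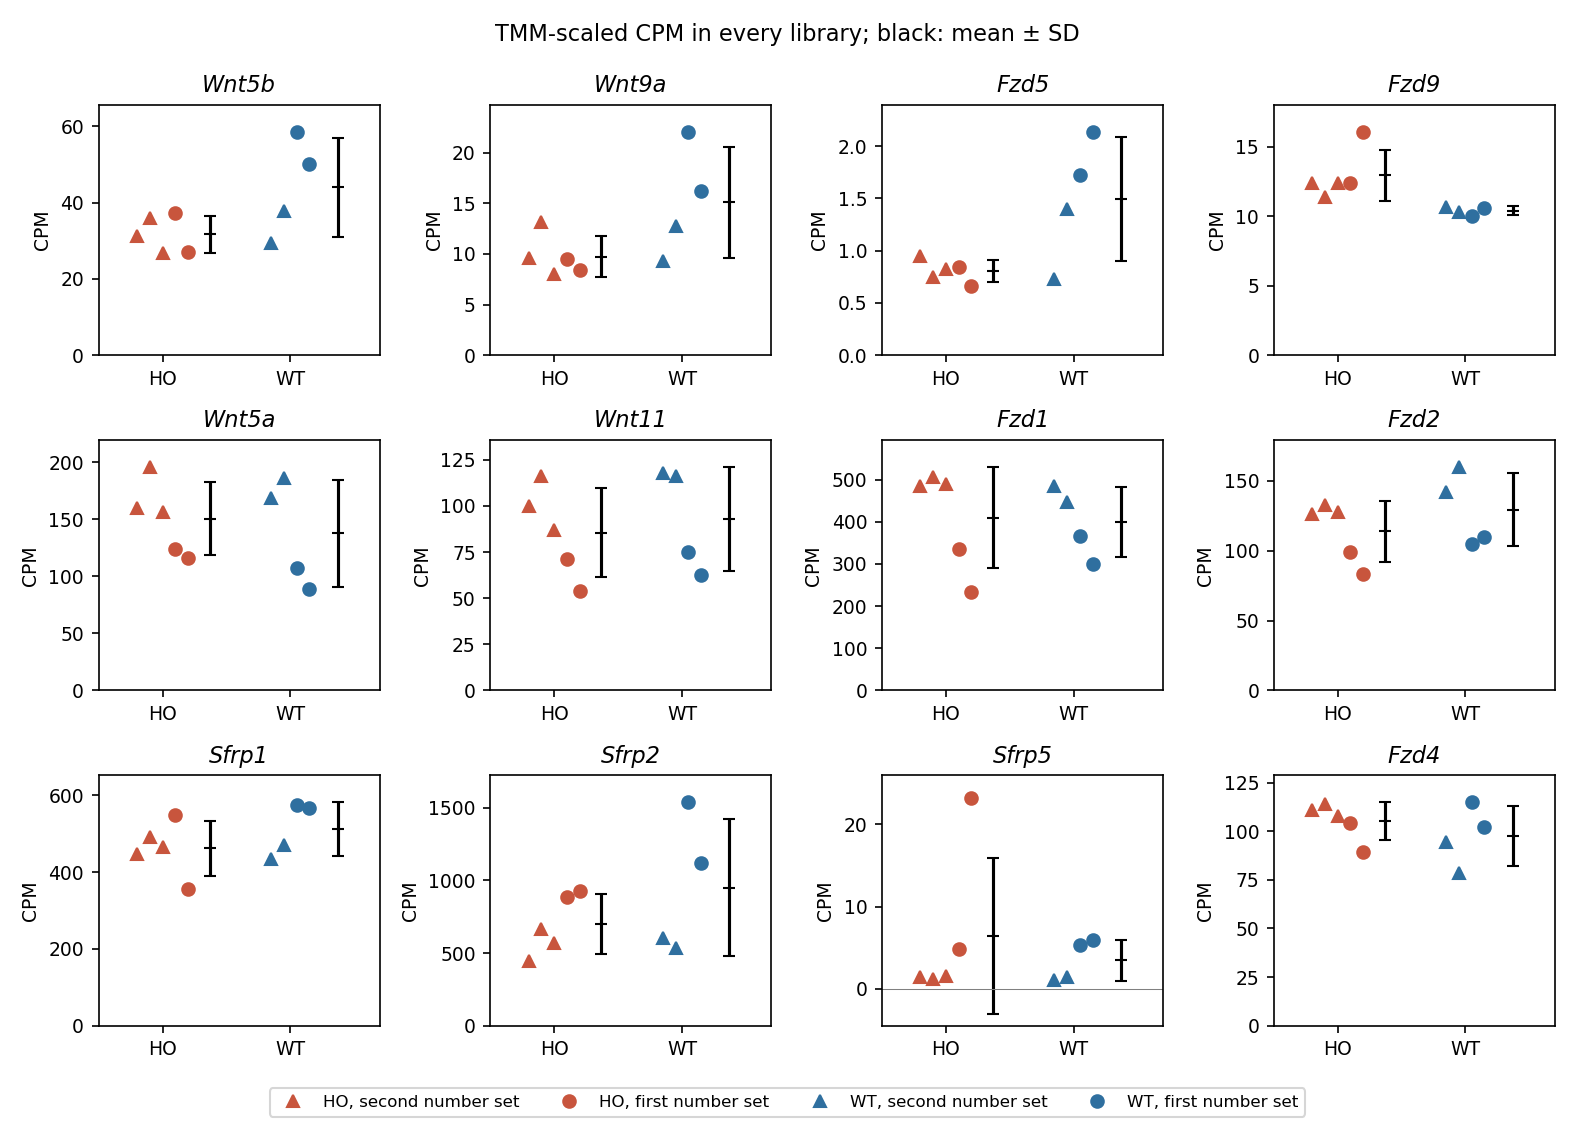
TMM-scaled CPM of 12 members in every library, HO left and WT right in each panel, triangles for the second and circles for the first number set, and black bars for the mean ± SD of each genotype (n = 5 HO and 4 WT). In Wnt5b, Wnt9a and Sfrp2 the WT1 and WT2 circles lie above the rest, and in Wnt5a, Wnt11, Fzd1 and Fzd2 the circles of both genotypes lie below the triangles.

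Among the abundant members, Sfrp2 averaged 699 ± 206 CPM in HO and 949 ± 471 CPM in WT, with a log2 fold change of -0.44 (SE 0.33), and of -0.11 without WT1. Sfrp1 averaged 462 ± 70.7 CPM in HO and 512 ± 70.5 CPM in WT, a log2 fold change of -0.15 (SE 0.14). Fzd1, at 410 ± 120 CPM in HO and 400 ± 83.4 CPM in WT, had a log2 fold change of 0.04 (SE 0.23), whose sign turned under several other settings. Wnt5a averaged 150 ± 31.7 CPM in HO and 138 ± 47.1 CPM in WT, and Wnt11 85.5 ± 24.2 CPM in HO and 93.0 ± 28.2 CPM in WT (SD, n = 5 HO and 4 WT throughout). Their log2 fold changes of 0.13 (SE 0.23) and -0.12 (SE 0.25) were smaller than their standard errors. Sfrp5 had a log2 fold change of 0.89 (SE 0.96) over all libraries and of -0.60 without HO2. The summed level of the family per kb of exon was 67.8 ± 15.1 CPM in HO and 73.9 ± 14.2 CPM in WT for Wnt genes, 178 ± 38.7 CPM in HO and 177 ± 24.1 CPM in WT for Fzd genes, and 434 ± 98.7 CPM in HO and 560 ± 235 CPM in WT for Sfrp genes (SD, n = 5 HO and 4 WT). Without WT1 the summed Sfrp level of WT was 464 ± 164 CPM (SD, n = 3).

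**Figure D3:**
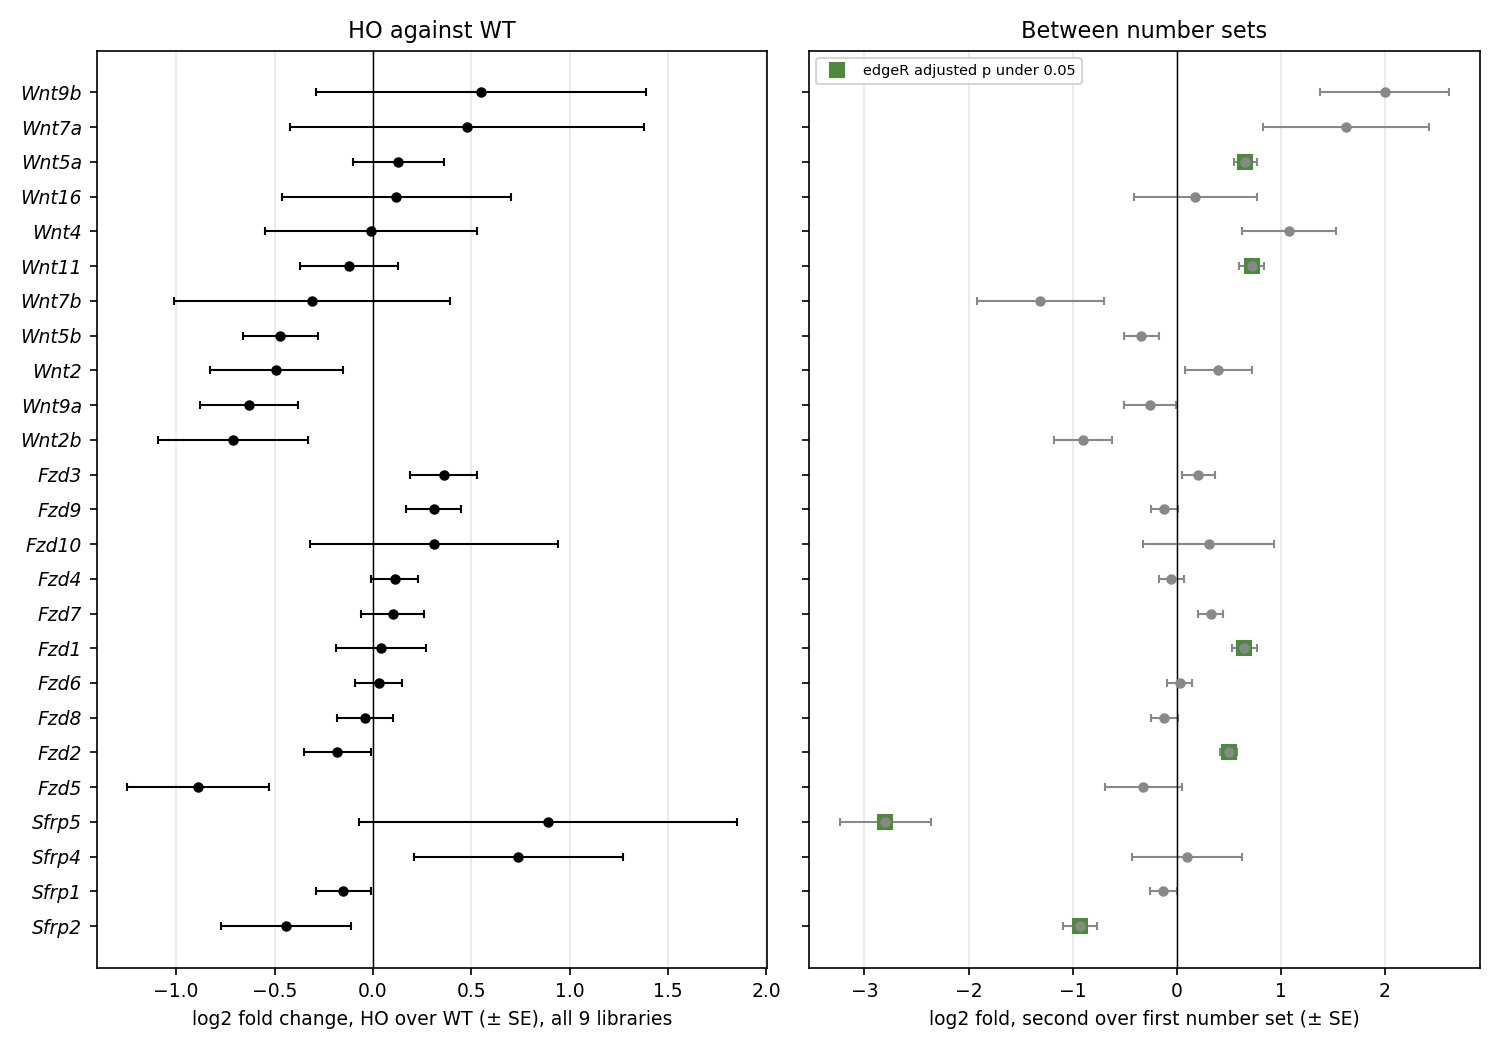
Log2 fold change of the 25 tested members with its SE, HO over WT on the left (5 HO and 4 WT libraries) and the second over the first number set on the right (5 and 4 libraries), with green squares for an edgeR adjusted p under 0.05. No member is marked on the left, and 6 members are marked on the right.

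The log2 fold changes of Wnt5b, Wnt9a and Fzd5 lay further below 0 within the first number set than within the second, but the test of a difference between the sets did not pass. Within the second set the log2 fold change HO over WT was -0.10 (SE 0.17) for Wnt5b, -0.10 (SE 0.25) for Wnt9a and -0.35 (SE 0.49) for Fzd5. Within the first set it was -0.74 (SE 0.22), -1.08 (SE 0.27) and -1.33 (SE 0.55) for the same genes, and -0.61 (SE 0.28), -0.83 (SE 0.34) and -1.46 (SE 0.68) without WT1, which leaves WT2 as the lone WT library, assumed to vary like the HO libraries. The second minus the first set gave 0.66 (SE 0.28, edgeR adjusted p = 0.666) for Wnt5b, 1.00 (SE 0.39, edgeR adjusted p = 0.626) for Wnt9a and 1.00 (SE 0.70, edgeR adjusted p = 0.845) for Fzd5. This test passed for 0 of 25 members (lowest adjusted p 0.562, Fzd7) and for 10 of all genes tested (0.0605%). At an unadjusted p under 0.05 it stood out for 4 members, Wnt5b, Wnt9a, Fzd4 and Fzd7, against 7.35% of all genes tested. Fzd9 was higher in HO in both sets, by 0.20 (SE 0.16) in the second and 0.48 (SE 0.27) in the first on the log2 scale. Fzd2 had -0.23 in each set (SE 0.09 in the second and 0.16 in the first). The median over the members was 0.07 in the second set and -0.15 in the first.

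The summed level of smooth muscle markers was highest in WT1 and WT2, the libraries that carry the Wnt5b, Wnt9a and Sfrp2 differences. The summed level of 10 smooth muscle genes, all of them at 1 CPM or more in at least 4 libraries, was 6020 to 7390 CPM in HO, against 15900 CPM in WT1, 12300 CPM in WT2 and 6480 to 7600 CPM in the other WT libraries. Abundant genes weigh most in this sum, and not every marker followed it (Actg2 had 46.3 CPM in WT2 and 68.0 CPM in WT3). All 10 smooth muscle genes were below 0 in HO over WT, 7 of them at an unadjusted p under 0.05 and 2 without WT1. Over all genes tested, 2.94% were lower and 2.32% higher in HO at that level, and no such share was computed without WT1. Epicardium and mesothelium markers, 12 of 12 tested, summed to 590 to 1020 CPM in HO, against 937 to 1390 CPM in WT, and 10 of them were below 0, with 6 at an unadjusted p under 0.05 and 4 without WT1. DESeq2 called 2 of them lower in HO, Krt19 and Krt8, against 0.225% of all genes called in either direction. Krt8 was also taken as a marker of foregut epithelium. HO and WT did not overlap for 3 of the 12, against 1.8% of all genes tested. Cushion mesenchyme markers, 12 of 12 tested, were all above 0 in HO over WT, 3 of them at an unadjusted p under 0.05 and 1 without WT1. They summed to 2350 to 3280 CPM in HO, against 1330 CPM in WT1, 1080 CPM in WT2 and 2760 to 3230 CPM in the other WT libraries. Blood markers summed to 1820 to 5660 CPM in HO, against 6410 CPM in WT1, 9990 CPM in WT2 and 1810 to 2210 CPM in the other WT libraries. Leukocyte markers summed to 107 to 263 CPM in HO, against 359 CPM in WT1, 373 CPM in WT2 and 72.5 to 117 CPM in the other WT libraries. None of the smooth muscle, epicardium and mesothelium, cushion mesenchyme, blood or leukocyte markers was at 0 in every library. The part of these cell types in the Wnt5b, Wnt9a and Sfrp2 values was not tested.

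**Figure D4:**
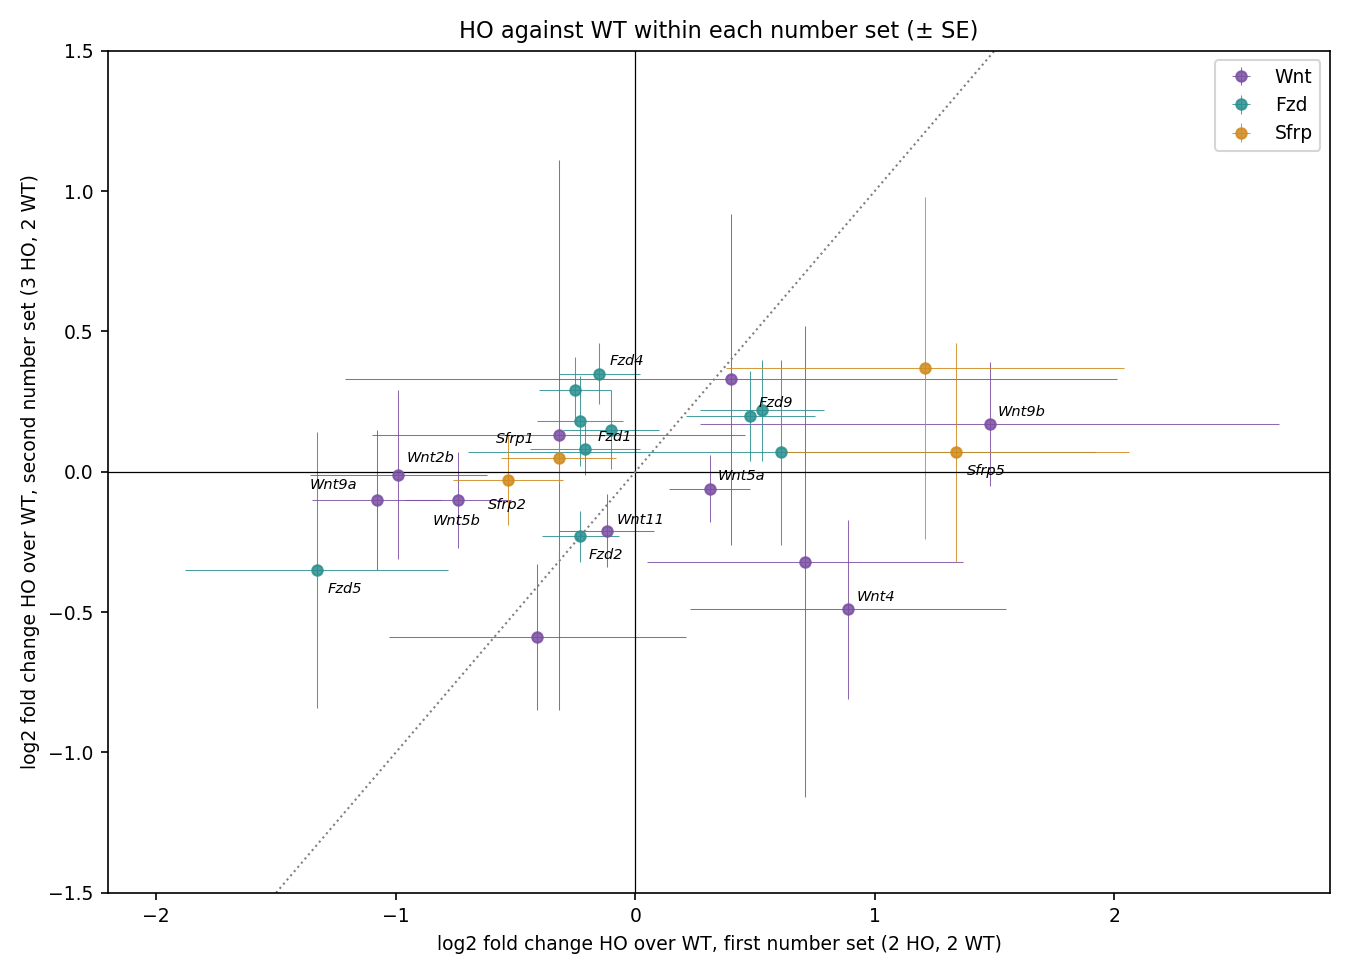
Log2 fold change HO over WT of each tested member within the first number set (horizontal, 2 HO and 2 WT libraries) against the second (vertical, 3 HO and 2 WT libraries), with SE bars and a dotted line of equal values. Wnt5b, Wnt9a and Wnt2b lie far left of 0 and near 0 on the vertical axis. Fzd5 lies far left of 0 and at -0.35 (SE 0.49) on the vertical axis, while Fzd9 is above 0 on both.

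More members passed the test between the number sets than between genotypes. In a fit with genotype and number set, 6 of 25 members passed the test, 4 higher and 2 lower in the second set, against 1625 of all genes tested (9.84%; 5.34% higher and 4.49% lower). The 4 higher members were the leading non-canonical ligands Wnt5a and Wnt11 and the leading receptors Fzd1 and Fzd2. The 2 lower members, Sfrp2 and Sfrp5, are antagonists. For each of these 6 the libraries of the sets did not overlap, and each passed the test again when any 1 library was left out and with DESeq2. The share of all genes tested without overlap between the sets was not computed, so the lack of overlap cannot be called particular to members. What the number stands for is not given, so no source of the difference can be named.

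Wnt5a had 156 to 196 CPM in the second set, against 89.2 to 124 CPM in the first, a log2 difference of 0.66 (SE 0.11, edgeR adjusted p = 0.008). Wnt11 had 86.8 to 118 CPM in the second set, against 53.8 to 75.2 CPM in the first, a log2 difference of 0.72 (SE 0.12, edgeR adjusted p = 0.00719). In both genotypes these ligands were higher in every library of the second set. Fzd1 had 447 to 506 CPM in the second set, against 233 to 367 CPM in the first, a log2 difference of 0.65 (SE 0.12, edgeR adjusted p = 0.0129). Fzd2 had 126 to 160 CPM in the second set, against 83.1 to 110 CPM in the first, a log2 difference of 0.50 (SE 0.08, edgeR adjusted p = 0.00709). Sfrp2 and Sfrp5 were lower in the second set, while Sfrp1 and Sfrp4 did not pass the test, at -0.13 (SE 0.13) and 0.10 (SE 0.53). Sfrp2 had 444 to 667 CPM in the second set, against 885 to 1540 CPM in the first, a log2 difference of -0.93 (SE 0.16, edgeR adjusted p = 0.00872). Sfrp5 had 1.10 to 1.57 CPM in the second set, against 4.91 to 23.2 CPM in the first, a log2 difference of -2.80 (SE 0.44, edgeR adjusted p = 0.00687), and of -1.99 without HO2.

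Wnt7a and Wnt9b did not overlap between the sets either, both with higher values in the second, but did not pass the test (edgeR adjusted p = 0.225 and 0.0786). For Wnt7a the sets nearly touched at a low level, with 0.696 to 2.28 CPM in the second and 0 to 0.668 CPM in the first. Here too the share of all genes tested without overlap was not computed. The summed Fzd level per kb was 194 to 212 CPM in the second set, against 123 to 167 CPM in the first, and the summed Sfrp level was 310 to 423 CPM in the second set, against 526 to 850 CPM in the first. The Wnt sums overlapped, at 64.6 to 89.0 CPM in the second set and 49.3 to 71.5 CPM in the first.

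Markers of other cell types also differed between the sets. Of 12 cushion mesenchyme markers, 9 were higher in the second set (5.34% of all genes tested were), where they summed to 2730 to 3280 CPM, against 1080 to 2710 CPM in the first. All 10 leukocyte markers were lower in the second set (4.49% of all genes tested were), at a sum of 72.5 to 134 CPM, against 219 to 373 CPM in the first. Neuron and Schwann cell markers summed to 3310 CPM in HO2 and to at most 178 CPM in every other library, beside the high Sfrp5 value of HO2. The part of these cell types in the differences of the 6 members was not tested.

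The rest of the pathway was read out of the same fits, from 5 lists that hold 93 other genes, of which 86 passed the low-count filter. Neither edgeR nor DESeq2 called any of the 86 between HO and WT in the fit of genotype alone. At an unadjusted edgeR p under 0.05, 1 was higher in HO and 2 were lower, against 2.32% and 2.94% of all genes tested. The median log2 fold change of the 86 was 0.02. Between the number sets, 16 were higher and 2 lower in the second, against 5.34% and 4.49% of all genes tested. Secretion of Wnt proteins needs the acyltransferase Porcn and the carrier Wls, whose log2 fold changes HO over WT were 0.01 (SE 0.23) and 0.02 (SE 0.15). None of the 11 genes for Wnt secretion and co-receptors had an unadjusted p under 0.05 in that comparison.

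Of 17 other secreted antagonists, 13 were tested and none had an unadjusted p under 0.05 between HO and WT in the fit of genotype alone. Frzb, also known as sFRP3, had 107, 72.0, 159, 153 and 106 CPM in HO, against 87.2, 69.3, 167 and 139 CPM in WT. Its log2 fold change was 0.05 (SE 0.29) HO over WT, and 0.78 (SE 0.16, edgeR adjusted p = 0.0184) for the second over the first number set. Its sign between the sets was that of Fzd1 and Fzd2 and opposite to that of Sfrp2. Dkk1, a secreted inhibitor of the co-receptor LRP6 and itself a canonical target, had 4.11, 1.36, 21.1, 15.6 and 17.2 CPM in HO, against 0.751, 0.596, 10.8 and 8.16 CPM in WT. Within each number set every HO library was above every WT library. Dkk1 was named after its values were seen, and the share of all genes tested with such a separation was not computed. The separation and the fits of Dkk1 are therefore a description of a picked gene. The log2 fold change HO over WT was 1.22 (SE 0.99, edgeR adjusted p = 0.930, DESeq2 adjusted p = 0.953). The blocked fit gave 1.34 (SE 0.29), with an adjusted p of 0.86 in edgeR and 0.00795 in DESeq2.

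Among 25 genes of canonical signal transduction, Apc2, a relative of the tumour suppressor Apc, had a log2 fold change of 1.60 (SE 0.71, unadjusted p = 0.0495, edgeR adjusted p = 0.896). It stood at 42.7 CPM in HO2 and at 3.65 to 6.24 CPM in every other library, and without HO2 its fold was 0.33. Bcl9l, a co-activator of β-catenin, had a log2 fold change of -0.38 (SE 0.17, unadjusted p = 0.0481, edgeR adjusted p = 0.896). In the list for planar polarity and calcium signalling, with 23 of 24 genes tested, Dact2, which binds dishevelled proteins, had -0.50 (SE 0.18, unadjusted p = 0.0204, edgeR adjusted p = 0.896). β-catenin itself, Ctnnb1, had 548 to 640 CPM in HO, against 599 to 624 CPM in WT.

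Of 22 canonical target genes, 20 were tested, and 9 were higher and 0 lower in the second number set (5.34% and 4.49% of all genes tested were). Of the 20, 19 lay above 0, with a median log2 difference of 0.81, against -0.02 over all genes tested. The list was chosen with earlier results of these data known, so these values are not independent of that choice. Between HO and WT, 0 of 20 targets had an unadjusted edgeR p under 0.05 in the fit of genotype alone. With the replicate number as a block 5 did, all higher in HO (Dkk1, Msx1, Msx2, Apcdd1 and Tnfrsf19), against 4.84% of all genes tested in either direction. The median log2 fold change HO over WT was 0.17, with 0.08 within the second set and 0.60 within the first. Lef1, a transcription factor of the pathway, had 15.3, 13.1, 33.4, 35.3 and 23.3 CPM in HO, against 7.90, 5.17, 35.4 and 44.0 CPM in WT. Its log2 difference was 1.76 (SE 0.30, edgeR adjusted p = 0.0089) for the second over the first set and 0.06 (SE 0.61) for HO over WT. Axin2, a negative feedback target, had 0.926, 0.733, 1.78, 1.96 and 1.25 CPM in HO, against 1.06, 0.571, 1.25 and 1.53 CPM in WT. Axin2 did not pass either test, with log2 differences of 0.89 (SE 0.34, edgeR adjusted p = 0.121) between the sets and 0.27 (SE 0.42) between genotypes. Msx1 and Msx2, which were among the 9, also stand in the list of cushion mesenchyme markers. Of those 12 markers, 6 were higher in HO at an unadjusted edgeR p under 0.05 with the block. Dkk1 and Apcdd1 also stand in the list of other secreted antagonists.

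**Figure D5:**
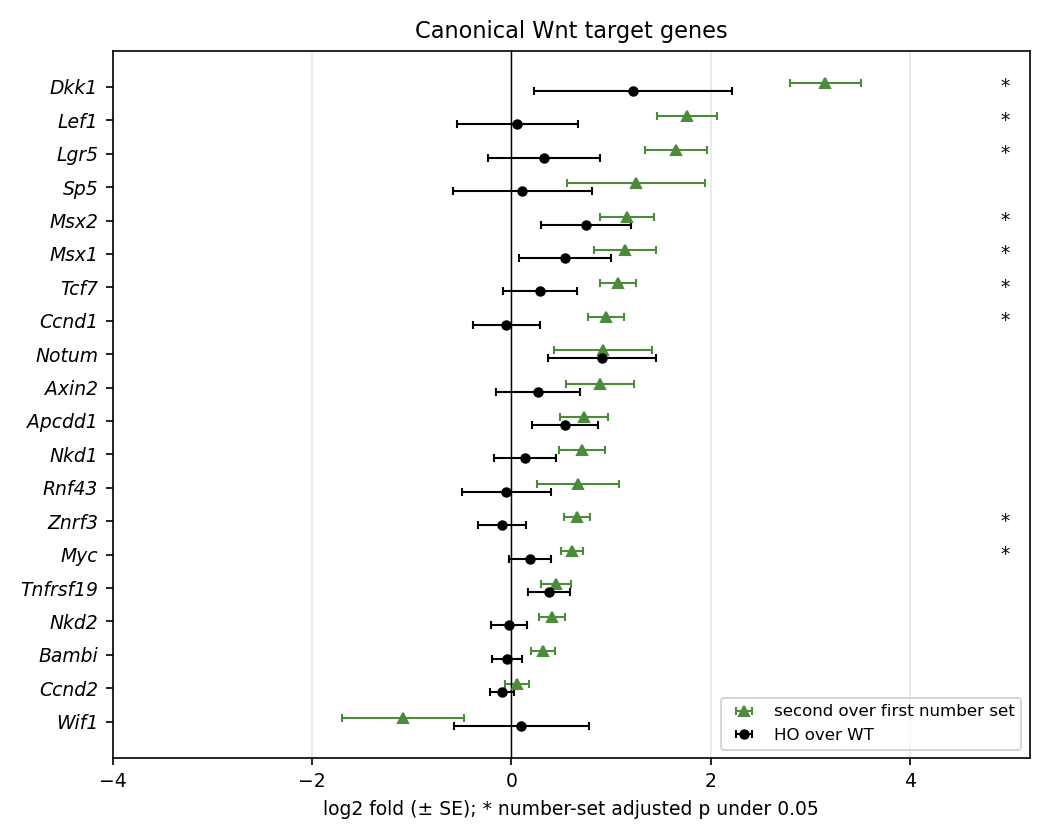
Log2 fold of 20 canonical Wnt target genes with its SE, green triangles for the second over the first number set (5 and 4 libraries) and black circles for HO over WT (5 and 4 libraries), with an asterisk for an edgeR adjusted p under 0.05 between the sets. The triangles lie right of 0 for 19 of 20 genes, with Wif1 as the exception, and 9 genes are marked.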

How the data were processed

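RNA of dissected outflow tracts was made into libraries with the SMART-Seq kit named in the labels' protocols. The submitters' processing notes name the build mm10 and, in no stated order or role, HTSeq 0.6.0, STAR 2.5.0c, DESeq2 and Picard. The authors deposited 1 file of raw counts per gene for each library, and these counts were analysed here without change. Rows that name no gene, 20.65% to 23.52% of reads, were left out. The main test was edgeR 4.0.16 in R 4.3.3: quasi-likelihood with TMM scaling, filterByExpr with a minimum count of 10, genotype as the only term, two-sided, and Benjamini-Hochberg adjustment over all 16522 tested genes at 0.05. CPM values are counts per 1000000 reads after TMM scaling. Level per length used the union of exons in GENCODE M21 (all 33 members and 46467 of 48397 symbols matched). DESeq2 1.42.0, limma 3.58.1 with voom and sample weights, other scalings and filters, and fits with the number set were the alternatives, and leave-one-out fits were run for every library. Family medians without HO2 or WT1, and family sums, first-set folds and marker counts without WT1, were added after the data were seen.

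The replicate numbers were taken to pair the samples as an assumption, and all results with the replicate block rest on it. Same-numbered HO and WT libraries deviated together from their group means (correlation 0.242, 0.137, 0.227 and 0.176). The mean correlation was 0.193 over all HO and WT pairs within a number set and -0.196 between the sets, so a shared number cannot be told apart from a shared number set. HO5 has no partner. The members and all lists were chosen with earlier results of these data known. Values in every library are given for members with an unadjusted p under 0.05, without overlap of the genotypes, past the number-set test, or among the 3 highest of their family per kb. Of the other pathway genes, Frzb, Axin2 and Lef1 and those with the smallest unadjusted p under 0.05 are named, and Dkk1 was added after its values were seen. Promoter windows are RefSeq's, GRCm38.p6. Intervals from counts of 0 cover counting error only.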

Additional observations from a re-analysis of the deposited data

Results flagged for a closer look

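A library stood apart from the rest of its genotype, by Dixon's test, in 3 of 50 groups examined, and chance flags about 1 in 20 groups. Sfrp5 was at 23.2 CPM in HO2 and at most at 4.91 CPM in the other HO libraries. Fzd9 was at 16.1 CPM in HO2, with the next HO library at 12.4 CPM. Fzd6 was at 30.1 CPM in WT1, with the next WT library at 26.4 CPM.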

How the results depend on the processing

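No member was called between HO and WT under any of the 20 alternatives. The number of genes called over the whole table was 40 with DESeq2, 4 with limma and 69 with DESeq2 and the replicate block, and 0 to 1 when a library was left out. With edgeR and the replicate block it was 0, as without, and the median of the members was -0.03. That block changed no edgeR call of a member. It turned the sign of 5 tested members, Fzd1 to -0.08 (-0.07 with DESeq2), Wnt4 to 0.46, Wnt16 to -0.05, Fzd6 to -0.03 and Fzd8 to 0.03. In the first number set alone, Wnt4 was at 0.89, Fzd6 at -0.10 and Fzd7 at -0.25, each with its sign turned. The median of the members was -0.15 in the first number set alone. Between the number sets DESeq2 called 3080 genes, and leaving out a library gave 488 to 1621. The difference of the genotype effect between the sets was called for 157 genes with DESeq2 and for 0 to 265 genes when a library was left out, with 0 to 1 members, the 1 being Wnt9b without WT1. Signs of log2 folds HO over WT of the members with values in every library turned as follows, and the cause was not tested. Wnt5a was at -0.01 with limma, -0.06 in the second set alone and -0.04 to 0.31 when a library was left out. Wnt11 ranged from -0.27 to 0.02 when a library was left out. Fzd1 was at -0.01 with limma, -0.06 with the number set as a factor, -0.07 with 3 number levels, -0.21 in the first set alone and -0.08 to 0.18 when a library was left out. Fzd4 was at -0.15 in the first set alone, and Sfrp1 at 0.05 in the second alone. Sfrp5 ranged from -0.60 (without HO2) to 1.28. The signs and calls of Wnt5b, Wnt9a, Fzd2, Fzd5, Fzd9 and Sfrp2 stayed the same in all alternatives that gave a value, and so did the number-set calls of the 6 members. The median SE of a log2 fold HO over WT was 0.194 over all genes tested. The tested members ran from 0.12 for Fzd4 and Fzd6 to 0.96 for Sfrp5, so the size of difference that these libraries can show differs by gene.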

Other observations

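In 2 gene pairs on chromosome 11 a transcribed Wnt gene lies beside a Wnt gene with few or no reads. Wnt9a, at 8.02 to 13.2 CPM in HO and 9.27 to 22.1 CPM in WT, lies 16.2 kb from Wnt3a, which had 0 reads in all 9 libraries. Wnt9b lies 24.3 kb from Wnt3, which had 39 reads in all. The pairs Wnt6 and Wnt10a on chromosome 1 and Wnt10b and Wnt1 on chromosome 15 are 6.2 and 11.7 kb apart, and none of these 4 genes passed the low-count filter.

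HO2 was the lowest library for 7 of 25 tested members (28%), against 16.5% of all genes tested. WT1 was the highest for 7 members (28%), against 14.4% of all genes tested, and HO4 for 6 (24%), against 9.08%.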
